A study of Mus musculus with 2 samples.

Results

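Mc5r, Oxtr, Otoa and Ankrd31 are 4 mouse genes that were chosen by their high levels in the cells that the study's authors named Wound_Stress in a wounded anorectal junction. All 4 have a row of their own among the 31054 genes counted in the normal library and among the 32285 counted in the wounded library. They were followed over the 4 named cell clusters of the normal library, the 6 of the wounded library and the cells that passed the quality filters but carry no name in the deposited tables, where the study's removed gland cells lie. The level in Wound_Stress cells is therefore what selected the genes and is given below only as a description. The other named wounded clusters were the other side of that choice, so their lower levels are a description as well. The normal library and the wounded cells without a name were not part of it, although some of these cells are close to Wound_Stress cells in their genes.

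Mc5r encodes the melanocortin 5 receptor, a receptor of exocrine glands that is known in mice for its part in the lipid secretion of sebaceous and preputial glands. Oxtr encodes the oxytocin receptor, which signals through Gq and phospholipase C and is best known from uterine muscle, mammary myoepithelium and brain. Otoa encodes otoancorin, an anchored protein of the inner ear whose loss causes deafness. Ankrd31 encodes an ankyrin-repeat protein of meiotic cells that takes part in placing DNA breaks on the sex chromosomes. Anal glands are modified skin glands that open at the junction of the anal and rectal epithelium and make a lipid-rich secretion.

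Both libraries came from the anorectal junction of C57/BL6J mice of both sexes that carried K17CreERT2, a tamoxifen-inducible Cre driven by the keratin 17 promoter, and the R26RGFP reporter, and all animals received tamoxifen. The normal library was from unwounded mice and the wounded library from mice taken 1 week after a wound made with hot EDTA and then an electric brush. The wounded mice received tamoxifen before the wound, so the time from tamoxifen to harvest was longer than in the normal mice. Cells of pooled animals were sorted on Epcam and the reporter and were read by the 10x Genomics 3′ assay, which counts unique molecular identifiers (UMIs). The paper's gate for epithelial cells also excluded cells with CD45, CD11b, CD31 or PDGFRa. There was 1 library per condition, so no spread between animals is known, no p-value is given for any difference, and all intervals below are exact 95% intervals for counting error only.

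Of 2564 barcodes in the normal library 1548 passed the filters and 939 carried a deposited name, and of 17216 barcodes in the wounded library 5225 passed and 4147 were named. Passing cells had a median of 9438 and 10041 UMIs, respectively. Over all barcodes, passing or not, the median mitochondrial share was 9.05% in the normal and 50.9% in the wounded library. The libraries shared 1 barcode and no named cell. The wounded library was made with a later version of Cell Ranger and another gene list than the normal library, as its file header gives it. The pools also differed in sex-linked RNA, since 41.3% of the passing normal cells and 16.1% of the passing wounded cells had UMIs of Y-linked genes and none of Xist. The condition, the time since tamoxifen, the pool, the run and the software cannot be told apart. The deposited names do not all carry over between the libraries either. Wounded cells named Basal held 10030 CPM (UMIs of a gene per 1000000 UMIs of the same cells) of 8 suprabasal genes such as Krt13 and Krt4, against 392 CPM in normal cells named Basal. The 10 rectum genes summed to 8195 CPM in normal and 7070 CPM in wounded Rectum cells. No comparison between clusters of the same name is reported here.

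The name Wound_Stress was set beside 2 gene lists. The summed level of 13 wound and stress genes was 1466 CPM in Wound_Stress cells, below the 2933 CPM of Regeneration cells and the 9048 CPM of wounded Suprabasal cells. Krt6a, a keratin of wounded epidermis, was at 12.6 CPM in Wound_Stress cells and at 1034 CPM in wounded Suprabasal cells, whereas the alarmin Il33 was at 153.9 and 10.1 CPM. In contrast, 10 anal gland genes, among them the lipid enzymes Scd1, Elovl3 and Far2, summed to 3703 CPM in Wound_Stress cells and to 3822 CPM in Regeneration cells, against 339.9 to 1070 CPM in the other named wounded clusters. The summed wound list thus did not place Wound_Stress cells above the other clusters. It was also at 11630 CPM in normal Suprabasal cells, above every named wounded cluster. The list therefore does not measure wounding alone and cannot decide on the name. The paper described 2 wound-related clusters by genes such as Il33. The name is kept here only as the authors' label.

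Clustering of all passing cells, with the 4 genes and their families left out, gave 1 cluster in each library with the highest score for the anal gland list. That list was taken from the study's own list for the gland cells of the normal library, so the high score there is no separate check. This anal gland-like cluster held 357 cells in the normal library, 332 of them without a deposited name and 25 named Basal. In the wounded library it held 663 cells, of which 425 had no name, 141 were named Wound_Stress, 96 Regeneration and 1 Basal. The gland list summed to 6394 CPM in the 332 normal cells and to 12983 CPM in the 425 wounded cells without a name. The 6 immune genes summed to 2.23 and 1.21 CPM in these cells and to 0.80 CPM in Wound_Stress cells, and the 5 melanocyte genes to at most 0.67 CPM in the 3 groups. Cells with the immune protein CD45 had been excluded by the sort, so the low immune sums are only a description. The 10 smooth muscle and myoepithelial genes summed to 224.4, 96.3 and 260.2 CPM in the same order, of which the tropomyosin gene Tpm2 alone made 187.2, 68.6 and 243.9 CPM. A textbook list of 10 sebaceous genes summed to 1892, 2547 and 843.6 CPM in that order. It was at 1448 CPM in Regeneration cells and at 166.9 to 274.4 CPM in the other named wounded clusters.

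Oxtr was found in gland-like cells of both libraries and in Wound_Stress cells. In the 838 cells named Wound_Stress, 274 UMIs gave a level of 36.7 CPM (32.5 to 41.3). It was 27.1 CPM (22.2 to 32.6) in the 332 normal gland-like cells without a name, where 109 UMIs were counted. These 2 levels come first and second of the 16 cell groups, and their intervals touch. Regeneration cells followed with 16.1 CPM (13.97 to 18.4), and the 425 wounded gland-like cells with 10.6 CPM (8.24 to 13.4). The intervals of these last 2 groups overlap neither each other nor those above. Each other group of 50 or more cells was at 4.44 CPM or below. Normal Basal cells were the highest of these, and 9 of their 12 Oxtr UMIs were in the 25 cells that fell into the gland-like cluster.

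Mc5r, which lies on chromosome 18 (68337596 to 68342446, plus strand, GRCm38) with Rnmt and Mc2r as its nearest annotated genes, had another order. The 425 wounded gland-like cells without a name held 665 Mc5r UMIs, or 100.4 CPM (92.9 to 108.3). Wound_Stress cells were at 37.1 CPM (32.9 to 41.8) and Regeneration cells at 14.1 CPM (12.1 to 16.3). The first 3 places were thus all wounded groups with gland genes, and their 3 intervals were apart from each other. Hybrid cells followed with 6.74 CPM (3.23 to 12.4) from 10 UMIs, at a median of 2390 UMIs per cell. The 332 normal gland-like cells held only 7 Mc5r UMIs, which is 1.74 CPM (0.70 to 3.58). In the normal library 8 Mc5r UMIs were counted in all, each of them in the gland-like cluster, and the 1191 passing cells outside it held 0, where a floor of 3 UMIs corresponds to 0.259 CPM.

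Otoa followed the order of Oxtr at its top. Wound_Stress cells were at 17.7 CPM (14.8 to 21.0) and normal gland-like cells without a name at 11.2 CPM (8.15 to 14.9). Wounded gland-like cells were at 6.04 CPM (4.32 to 8.22) and Regeneration cells at 5.23 CPM (4.06 to 6.63). From the first place to the last of these, each interval overlapped that of its neighbour. All other groups were at 2.59 CPM or below. The 573 wounded Basal cells held 0 Otoa UMIs.

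Ankrd31 was at 15.3 CPM (12.4 to 18.5) in the wounded gland-like cells and at 14.5 CPM (11.9 to 17.5) in Wound_Stress cells, which did not differ beyond counting error. Regeneration cells were at 8.61 CPM (7.09 to 10.4) and normal gland-like cells at 6.70 CPM (4.42 to 9.75), with overlapping intervals. All other groups were at 1.48 CPM or below. In the 1032 wounded Suprabasal cells 1 Ankrd31 UMI was counted. The plot of levels by cell group shows that gland-like, Wound_Stress and Regeneration cells are the 4 highest groups for Oxtr, Otoa and Ankrd31, while for Mc5r the normal gland-like cells fall back among the low groups.

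**Figure D1:**
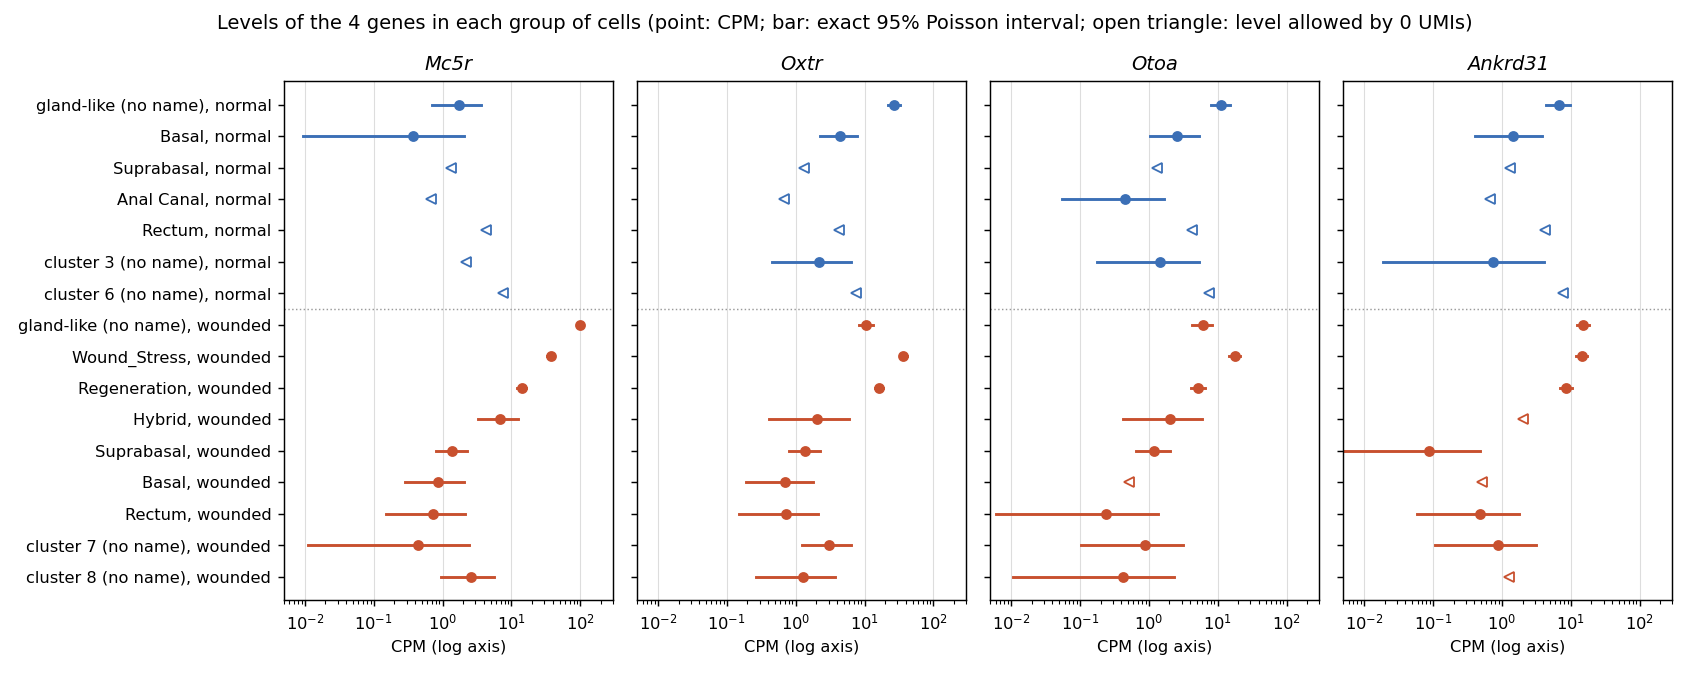
Levels of Mc5r, Oxtr, Otoa and Ankrd31 in CPM on a log axis in 7 groups of normal cells (blue) and 9 groups of wounded cells (red). Points are CPM of summed UMIs, bars are exact 95% Poisson intervals and open triangles are the level that 0 UMIs allow (3 UMIs). Mc5r reaches 100.4 CPM in wounded gland-like cells and 1.74 CPM in normal ones, while Oxtr is at 10.6 and 27.1 CPM.

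The contrast that chose the genes is given once. Wound_Stress cells over the other named wounded cells gave log2 ratios of 2.62 (2.36 to 2.88) for Mc5r, 2.49 (2.23 to 2.75) for Oxtr, 2.89 (2.48 to 3.29) for Otoa and 2.18 (1.78 to 2.57) for Ankrd31. In all, 0.309% of the 14241 genes with at least 20 UMIs were at least 4-fold higher in these cells. Otoa, Mc5r, Oxtr and Ankrd31 took places 3, 8, 14 and 28, in this order. Nothing is read from these places, because this contrast selected the genes.

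The gland-like cluster against all other passing cells is a separate contrast, although in the wounded library it shares 141 cells with Wound_Stress. There its other side also includes cells of the named wounded clusters on which the genes were chosen. In the normal library the cluster was at 26.6 CPM of Oxtr and the other cells at 0.52 CPM, a log2 ratio of 5.68 (4.52 to 7.16). The ratio was 4.73 (3.42 to 6.42) for Otoa, from 11.5 and 0.43 CPM, and 5.29 (3.31 to 8.40) for Ankrd31, from 6.76 and 0.17 CPM. These 3 genes took places 24, 40 and 28 among 12699 genes, of which 2.24% were at least 4-fold higher. With 8 UMIs Mc5r lay below the minimum of 20 UMIs. Since the other cells held 0 UMIs, its log2 ratio was computed against a floor of 3 UMIs over all of them, which gave 2.80. The lower limit of the exact binomial interval for 8 against 0 UMIs, which does not use the floor, was 2.15. These ratios depend on the extent of the cluster: at a finer resolution, which named only a cluster of 208 cells as gland-like, they fell to 2.36 for Oxtr, 2.18 for Otoa and 3.53 for Ankrd31. Mc5r was then at 2.20 CPM in that cluster and 0.22 CPM outside it, a log2 ratio of 3.33 (0.97 to 6.02). Its 0 UMIs outside thus hold for the larger cluster only. At that resolution another cluster of 148 cells also had the gland list as its highest, but at a mean log2 ratio of 0.34, below the 1 needed for the name, and was counted with the other cells.

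In the wounded library the same contrast separated the genes. Mc5r was at 86.8 CPM in the cluster and 7.20 CPM outside it, a log2 ratio of 3.59 (3.41 to 3.78). Ankrd31 was at 15.6 and 3.84 CPM, a ratio of 2.03 (1.70 to 2.35). For Oxtr and Otoa the ratios were 0.18 (-0.13 to 0.48) and 0.40 (-0.05 to 0.83), so that no difference was detectable at this depth. Of 15180 genes, 1.5% were at least 4-fold higher in the cluster, Mc5r and Ankrd31 among them. The cells outside the cluster include the other 697 Wound_Stress cells, which hold much of the Oxtr and Otoa signal.

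Splitting the named cells by the gland-like cluster showed opposite orders for the 2 receptors. Inside the cluster 141 Wound_Stress cells held 64.8 CPM of Mc5r (51.0 to 81.1), and the 697 outside held 32.0 CPM (27.7 to 36.7). Oxtr was at 23.9 CPM (15.9 to 34.5) inside and at 39.1 CPM (34.4 to 44.3) outside, where the intervals just meet. In Regeneration cells Mc5r was at 51.9 CPM inside and 7.80 CPM outside, and Oxtr at 8.64 CPM (4.94 to 14.04) inside and 17.3 CPM (14.9 to 19.9) outside. The Mc5r intervals were apart in both named clusters, the Oxtr intervals in Regeneration cells only. Otoa was at 11.1 CPM (5.90 to 19.0) inside and 18.9 CPM (15.7 to 22.6) outside in Wound_Stress cells, and Ankrd31 at 21.3 CPM (13.8 to 31.5) and 13.2 CPM (10.5 to 16.4), with overlapping intervals for both.

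**Figure D2:**
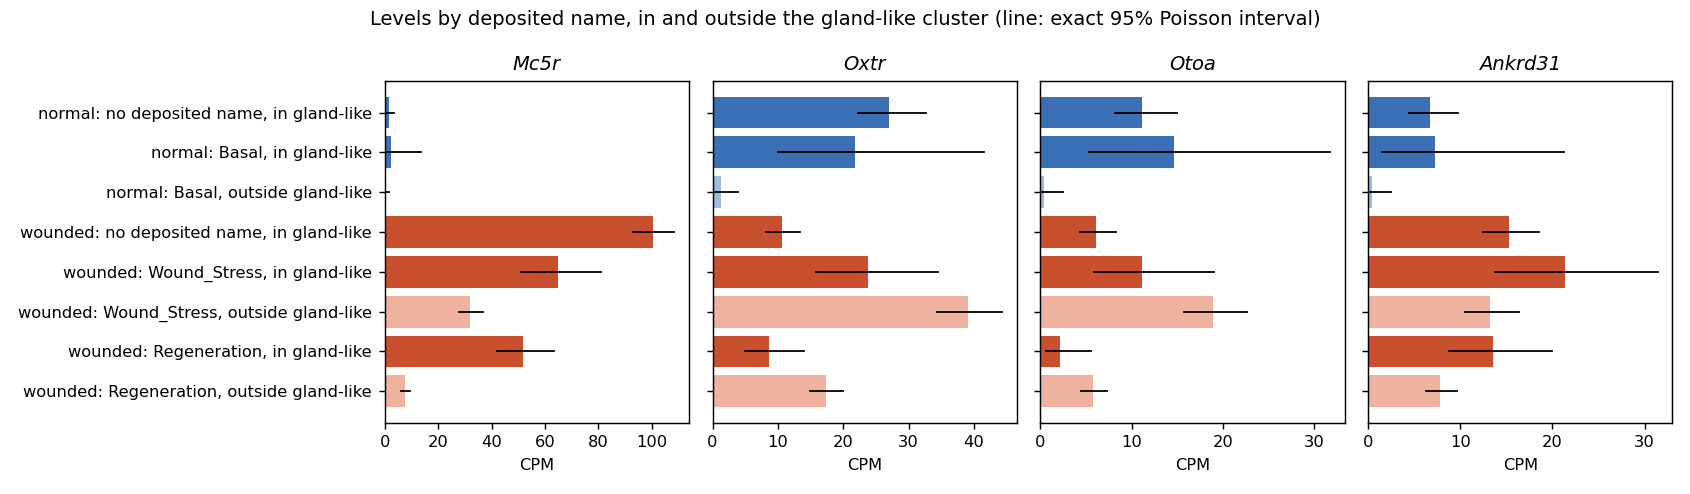
Levels of the 4 genes in CPM in cells split by deposited name and by whether they fell into the gland-like cluster (dark bars inside, pale bars outside). Black lines are exact 95% Poisson intervals. Mc5r is higher inside the cluster for Wound_Stress (64.8 against 32.0 CPM) and Regeneration cells (51.9 against 7.80 CPM), whereas the Oxtr bars of these clusters are longer outside and that of normal Basal cells is longer inside.

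To follow this within cells of 1 name, cells were ordered by the summed CPM of the 10 gland genes and cut at 1000, 2000, 4000 and 8000 CPM. These cuts were chosen after the data had been seen, and 29.2% of Wound_Stress cells lie within 10% of a cut, so the bins are ranges and not cell types. In Wound_Stress cells Mc5r was at 13.3, 25.1, 61.6 and 103.4 CPM from the bin that starts at 1000 CPM upward. In Regeneration cells, from the lowest bin, it was at 1.89, 1.52, 8.06, 23.1 and 53.8 CPM. In Regeneration cells Mc5r thus had its highest value in the top bin. In Wound_Stress cells the top bin holds only 38 cells with 16 Mc5r UMIs at a median of 3397 UMIs per cell, and 28.9% of its cells had an Mc5r UMI against 35.3% in the bin before, so its place above that bin is not read. The intervals of neighbouring bins were apart between 2000 and 8000 CPM in both clusters, while those of the 2 lowest bins overlapped in each, as did the 2 highest of Wound_Stress cells.

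Oxtr had its highest values lower on this scale. In Regeneration cells it was at 2.36, 13.7, 25.5, 17.4 and 10.5 CPM, with the peak at 2000 to 4000 CPM of gland genes, where the interval lay above that of the top bin. In Wound_Stress cells it was at 40.9, 40.8, 30.6 and 19.4 CPM. The top bin there rests on 3 Oxtr UMIs, and no order is read from it either. In the normal gland-like cluster Oxtr was at 6.10, 33.7, 31.6 and 13.8 CPM, again with the lower values at either end.

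Otoa was at 1.89, 4.94, 8.29, 5.23 and 1.86 CPM in Regeneration cells and at 3.05, 15.1, 15.2 and 2.31 CPM in the normal gland-like cluster. In both sets the interval of the 2000 to 4000 CPM bin lay above that of the top bin. Wound_Stress cells did not have this peak, with Otoa at 14.4, 17.7 and 19.6 CPM in overlapping intervals and 0 UMIs in the 38 cells of the top bin. Ankrd31 was at 0, 3.42, 10.1, 18.3 and 10.5 CPM in Regeneration cells, with overlapping intervals in the top 3 bins, at 8.84, 12.1, 20.4 and 19.4 CPM in Wound_Stress cells and at 0, 6.18, 5.26 and 13.8 CPM in the normal cluster. When Scd1 and Mgst1 were left out of the ordering, the cuts were also set lower, and the top bin started at 4000 CPM in place of 8000 CPM. The bins of the 2 orderings are thus not the same ranges. Mc5r then had its highest values in the top bin (86.2 CPM in Wound_Stress and 53.7 CPM in Regeneration cells). Oxtr in Regeneration cells peaked below it (26.3 and then 10.4 CPM). Otoa in Wound_Stress cells had its highest value, 26.6 CPM, in the top bin, now of 109 cells, in place of 0 UMIs in 38 cells. In those 38 cells a floor of 3 UMIs corresponds to 19.4 CPM, so the 0 does not place that bin below the one before it. Whether the genes left out or the lower cuts made this change was not tested.

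**Figure D3:**
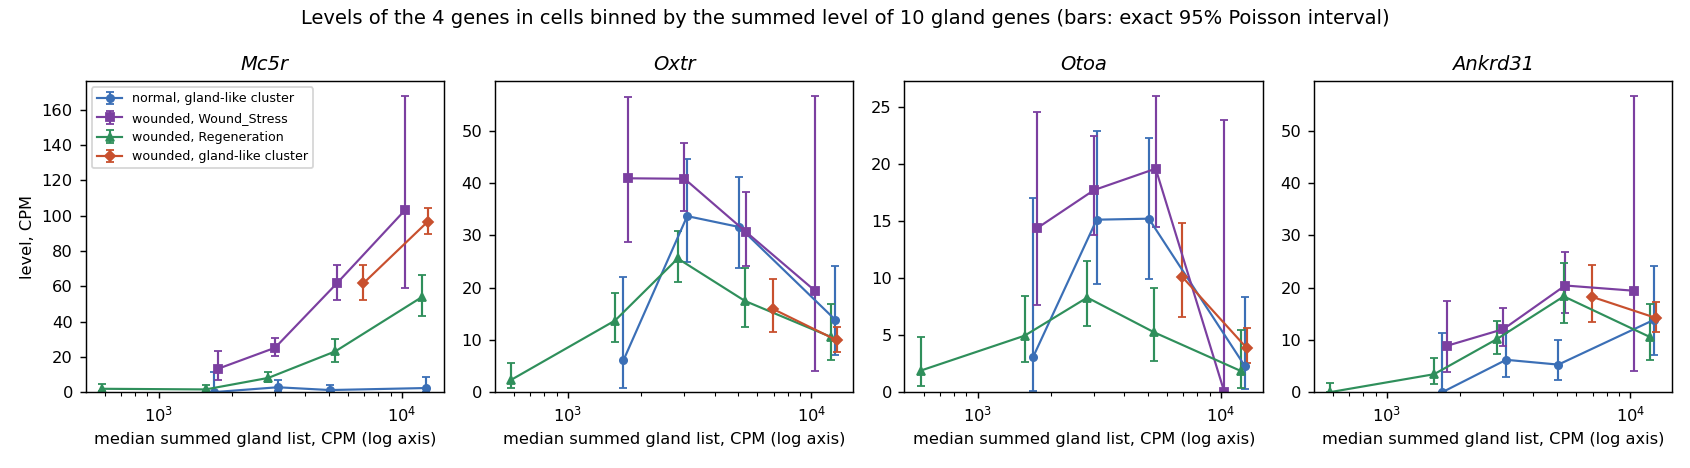
Levels of the 4 genes in CPM against the median summed CPM of 10 gland genes (log axis) in bins of cells, for the normal gland-like cluster (blue circles), Wound_Stress (purple squares), Regeneration (green triangles) and the wounded gland-like cluster (red diamonds). Bars are exact 95% Poisson intervals. Mc5r is at 103.4 CPM in the top bin of Wound_Stress cells, which holds few UMIs and is not ranked above the bin before it. In the normal set Mc5r stays at or below 2.75 CPM, whereas Oxtr peaks at 33.7 CPM and is 13.8 CPM in the top bin.

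Gland-like cells without a name allow both libraries to be set side by side. Mc5r was at 100.4 CPM in the wounded and 1.74 CPM in the normal library, a log2 ratio of 5.85 (4.80 to 7.17). Oxtr went the other way, with 10.6 and 27.1 CPM and a log2 ratio of -1.36 (-1.81 to -0.91). Otoa was at 6.04 and 11.2 CPM (-0.89, from -1.54 to -0.24) and Ankrd31 at 15.3 and 6.70 CPM (1.19, from 0.56 to 1.86). Counting error covers none of these 4 differences, yet each rests on 1 pool of animals per condition. The wounded side leaves out named cells with gland genes, among them Wound_Stress cells at 36.7 CPM of Oxtr and Regeneration cells at 16.1 CPM. The differences are thus given for gland-like cells without a name only.

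The 2 sets of gland-like cells also differ in gland gene level, so bins with the same limits were compared, although the median within the 4000 to 8000 CPM bin was still higher in wounded (6556 CPM) than in normal cells (5061 CPM). The bin above 8000 CPM has no upper limit, so the gland gene level in it can differ further between the libraries. At 4000 to 8000 CPM of gland genes, Mc5r was at 61.7 CPM (52.5 to 72.1) in the wounded cluster and 1.17 CPM (0.14 to 4.22) in the normal one, and above 8000 CPM at 96.6 and 2.31 CPM. Oxtr in the same bins was at 15.9 CPM (11.4 to 21.6) and 31.6 CPM (23.7 to 41.2), and above 8000 CPM at 9.88 CPM (7.69 to 12.5) and 13.8 CPM (7.16 to 24.2), where the intervals overlap. Otoa was at 10.1 and 15.2 CPM and then at 3.87 and 2.31 CPM, and Ankrd31 at 18.2 and 5.26 CPM and then at 14.2 and 13.8 CPM. Within these limits the Mc5r intervals were apart in both bins, while those of Oxtr and Ankrd31 were apart in the lower bin only and those of Otoa in neither. Wound_Stress and Regeneration cells outside the gland-like cluster are not in these bins.

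The share of sexes differed between the pools and was looked at in the same cells. In the normal gland-like cluster 33.1% of cells had Y-linked UMIs and no Xist, and in the wounded one 16.9%. Among these cells Mc5r was at 0.63 CPM (0.02 to 3.50) in the normal and 63.3 CPM (51.7 to 76.8) in the wounded library. Among cells with Xist and no Y-linked UMI it was at 2.48 CPM (0.91 to 5.41) and 92.6 CPM (85.7 to 100.01). Within the wounded library the intervals of these classes were apart. The part of the sexes in the difference between the libraries was not tested. Oxtr was at 20.7 and 9.83 CPM in the Y-linked class, with overlapping intervals, and at 32.3 and 12.0 CPM in the Xist class.

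Single cells held few UMIs of these genes. In the 425 wounded gland-like cells 286 had an Mc5r UMI, 93 had 3 or more and the highest cell had 13. In Wound_Stress cells 199 of 838 had an Mc5r UMI and 16 had 3 or more. The highest Oxtr count in a cell was 4 in Wound_Stress cells and 5 in normal gland-like cells. Mc5r in the wounded gland-like cells was spread over most of the cells, and it was seen in 49 of the 96 Regeneration cells inside that cluster. In each of the other groups of cells taken whole, every gene was seen in a minority.

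To compare shares at equal depth, each cell was thinned to 2000 UMIs. Mc5r was then found in 18.6% (15.0 to 22.6) of the 425 wounded gland-like cells, in 7.09% (5.43 to 9.07) of 818 Wound_Stress cells and in 2.23% (1.40 to 3.36) of 986 Regeneration cells. Without thinning the first 2 shares were 67.3% and 23.7%. Rectum cells serve as 1 measure of free RNA, provided that they do not make these RNAs themselves. Those of the wounded library were also on the other side of the contrast that chose the genes. Among them 0 of 354 had an Mc5r UMI, which allows a share of up to 0.847% by 3 counts and 1.04% by the Clopper-Pearson limit. Without thinning 3 of 397 Rectum cells (0.756%) had one, at a median depth of 9991 UMIs against 8532 in Wound_Stress cells. Oxtr was found in 6.85% (5.21 to 8.80) of Wound_Stress cells, 6.58% (4.12 to 9.89) of 319 normal gland-like cells and 0.282% of wounded Rectum cells, and without thinning in 24.8%, 22.9% and 0.756%. In the normal library 0 of 60 Rectum cells had an Oxtr UMI, which allows up to 5.96%, so the free RNA of that library is known less well. Thinning left out 20 Wound_Stress, 5 Regeneration, 13 normal gland-like and 43 wounded Rectum cells.

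Otoa was found in 4.40% (3.101 to 6.04) of the thinned Wound_Stress cells and in 1.41% (0.52 to 3.05) of the wounded gland-like cells. Ankrd31 was found in 2.81% (1.79 to 4.19) and 2.82% (1.47 to 4.88). In the 354 thinned Rectum cells neither gene was seen. Without thinning the Wound_Stress shares were 12.53% for Otoa and 10.5% for Ankrd31, and those of Rectum 0.252% and 0.504%.

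Joint detection was asked of each of the 6 pairs of genes. In thinned Wound_Stress cells 5 of 58 cells with Mc5r also had Oxtr (8.62%, 2.86 to 19.0), and 51 of 760 cells without Mc5r did (6.71%, 5.04 to 8.73). The intervals overlapped for 6 of 6 pairs in Wound_Stress, Regeneration, normal and wounded gland-like cells alike. Without thinning, Ankrd31 was found in 34 of 199 Wound_Stress cells with Mc5r and in 54 of 639 without it (17.1% and 8.45%, separate intervals), but the former cells were also deeper, with a median of 9286 UMIs against 8305. The same pair was apart in Regeneration cells, with 24 of 115 and 66 of 876 (20.9% and 7.53%), again with a deeper median of 16150 against 12267 UMIs. At equal depth, a tendency of any pair to share cells or to avoid each other was not detectable.

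The likeness of the genes was described by Pearson's r of log2(CPM + 1) over the 16 cell groups, which share their libraries and differ in depth. Oxtr and Otoa were most like each other (r = 0.97), and Ankrd31 was close to both (0.92 and 0.90). Mc5r stood further off, with 0.72 to Oxtr, 0.73 to Otoa and 0.80 to Ankrd31. These values include Wound_Stress cells, on which all 4 genes were chosen. Over the other 15 groups r was 0.96 between Oxtr and Otoa, 0.89 and 0.87 from Ankrd31 to these, and 0.62, 0.64 and 0.74 from Mc5r to Oxtr, Otoa and Ankrd31. These groups still include the other named wounded clusters, the other side of the contrast that chose the genes, so the choice is not fully removed. The 5 genes nearest to Mc5r were Ttn, Isoc2b, Ugt1a1, Rdh9 and Lyst (r from 0.91 to 0.98), all highest in wounded gland-like cells, although Ttn rests on 141 UMIs.

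After Otoa, the genes nearest to Oxtr were Cdk18, Clstn3, Acaa1b and Tmem179 (0.92 to 0.95). Besides Oxtr, Otoa had Cdk18, Acaa1b, Myrip and Echdc2 (0.91 to 0.94). Ankrd31 was nearest to Ambp, Acaa1b, Tecr, Coq6 and Taldo1 (0.93 to 0.96). Acaa1b, a peroxisomal thiolase of fatty acid breakdown, is on 3 of these lists, with 62.6 CPM in normal and 70.2 CPM in wounded gland-like cells and 33.1 CPM in Wound_Stress cells. Tecr, a reductase of fatty acid elongation, was at 1388, 2616 and 1075 CPM in the same groups.

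The partners of the receptors were given by lists. Of 7 other genes of the oxytocin and vasopressin system, 4 had at least 20 UMIs in the Wound_Stress contrast. None of these was at least 4-fold higher, where 0.309% of all genes were, so nothing is read from this count. Avpr1a came nearest with a log2 ratio of 1.86 (1.71 to 2.01). The vasopressin receptor Avpr1a was the member with the clearest gland pattern. It was at 97.6 CPM in normal gland-like, 58.7 CPM in wounded gland-like and 85.4 CPM in Wound_Stress cells, against 5.11 CPM in wounded Rectum cells. In the normal library its gland-like log2 ratio was 5.02 (4.51 to 5.57), the only one of 3 tested members at least 4-fold higher, where 2.24% of all genes were. In the wounded gland-like contrast its ratio was 1.12 (0.98 to 1.26), and none of 4 tested members was at least 4-fold higher, against 1.5% of all genes. The aminopeptidase gene Lnpep was lower in both gland-like contrasts (-0.72 and -1.20), as was Cd38, with 0 against 70 UMIs in the normal library and a log2 ratio of -2.15 in the wounded one. The peptide genes Oxt and Avp were at 0.13 CPM or below in these groups, and Cd38, whose product is needed for oxytocin release in the brain, was at 2.95 CPM in Wound_Stress and 68.9 CPM in wounded Rectum cells.

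Of the melanocortin list 12 genes had a row. The other melanocortin receptors Mc1r, Mc2r, Mc3r and Mc4r were each at 0.50 CPM or below in gland-like and Wound_Stress cells, and the accessory genes Mrap and Mrap2 were at 0 UMIs in these cells. Pomc, which encodes the peptide hormone precursor, was at 0.25 CPM in normal and 0.15 CPM in wounded gland-like cells. The list had 4 genes with at least 20 UMIs in the Wound_Stress contrast and 5 in the wounded gland-like contrast, and 0 of them were 4-fold higher in either. With 0.309% and 1.5% of all genes so called, nothing is read from counts of 0 in lists of this size.

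The 10 G-protein effectors all had UMIs in both sets of gland-like cells and in Wound_Stress cells. Plcb1, a phospholipase C downstream of Gq, was at 19.2 CPM in Wound_Stress cells, 10.2 CPM in normal and 3.93 CPM in wounded gland-like cells, while Plcb4 was at 16.2, 10.7 and 29.7 CPM. Gnaq, which encodes the Gq alpha subunit, was at 50.5, 25.3 and 19.6 CPM. None of the 10 was at least 4-fold higher in Wound_Stress cells or in either gland-like cluster, where 0.309%, 2.24% and 1.5% of all genes were. Adcy7 had 1 UMI in Wound_Stress cells and 25 in the other named wounded cells, a log2 ratio of -2.38 with an interval that includes 0 (-7.74 to 0.23), and 1 UMI in each gland-like cluster, with ratios of -4.64 (-9.96 to -2.11) in the normal and -4.52 (-9.83 to -2.01) in the wounded library.

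**Figure D4:**
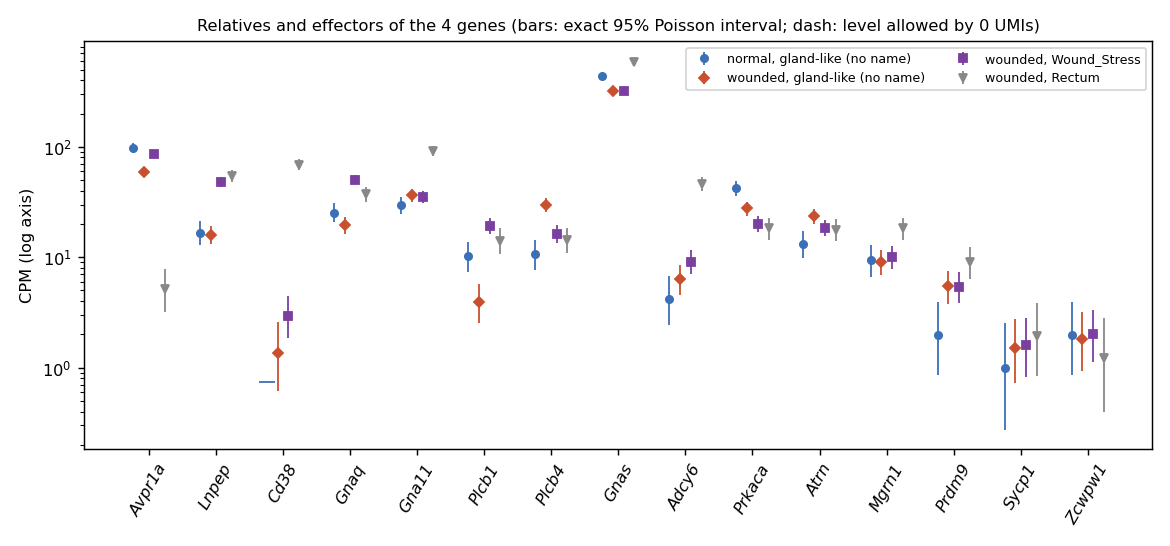
Levels in CPM on a log axis of relatives and signalling partners of the 4 genes in normal gland-like cells (blue circles), wounded gland-like cells (red diamonds), Wound_Stress cells (purple squares) and wounded Rectum cells (grey triangles). Bars are exact 95% Poisson intervals and the dash is the level allowed by 0 UMIs. Avpr1a is at 58.7 to 97.6 CPM in the first 3 groups and at 5.11 CPM in Rectum cells, and Cd38 has the opposite order.

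The inner-ear genes were nearly absent, whereas the meiotic list was in part expressed. Of the 8 genes of the otoancorin family and the inner-ear matrix, such as Strc, Tecta and Otog, none reached 20 UMIs in any of the 3 contrasts, and their summed level was at most 0.15 CPM in gland-like and Wound_Stress cells. The meiotic genes Rec114, Spo11 and Hormad1 were at 0 UMIs there, and Mei4, whose product also takes part in DNA break formation, was at 0.40 CPM in Wound_Stress and 0.25 CPM in normal gland-like cells. Prdm9, which marks meiotic recombination sites, was at 5.36 CPM in Wound_Stress cells and at 9.002 CPM in wounded Rectum cells. Of 12 meiotic genes with a row, 3 were tested in each wounded contrast and 2 in the normal one, and 0 were 4-fold higher, a count from which nothing is read at the shares of 0.309% to 2.24% over all genes. The list summed to 9.92 CPM in Wound_Stress, 8.76 CPM in wounded and 5.46 CPM in normal gland-like cells.

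Gene positions were read from GENCODE M21, whose build GRCm38 is the mm10 that the labels name. Oxtr lies at chr6:112473683-112489943 on the minus strand, Otoa at chr7:121081650-121163097 on the plus strand and Ankrd31 at chr13:96748272-96910039 on the plus strand, and all 3 are protein-coding. Cav3, 811 bases from Oxtr, had 0 UMIs in Wound_Stress cells, so the level of Oxtr was not shared by it. Mettl9, 3321 bases from Otoa, was at 463.02, 394.7 and 324.9 CPM in normal gland-like, wounded gland-like and Wound_Stress cells, and Gcnt4, 14650 bases from Ankrd31, at 0.50, 1.21 and 1.07 CPM. The nearest genes on the other sides, Gm27944, Gm9240 and Gm48575, are a small nuclear RNA gene and a pair of processed pseudogenes with no row in the matrices.

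To show the start regions of the 3 genes with the same 4 highest cell groups, the bases before their RefSeq start sites (GRCm38.p6) are shown, 5′ to 3′ in the direction of transcription and cut before the first base that GENCODE annotates as untranslated or coding sequence. Because of this cut the windows stop short of the RefSeq start sites, and the bases between were not searched. The Otoa start site of RefSeq lies inside the gene as GENCODE has it, so its window does too. They cover 132 bases for Oxtr (chr6:112489944-112490075, minus strand), 75 for Otoa (chr7:121083174-121083248, plus strand) and 229 for Ankrd31 (chr13:96748043-96748271, plus strand). Both strands were searched for the TATA box TATAAA, for the CCAAT box, for the GC box GGGCGG, for the E-box CACGTG and for the AP-1 motif TGANTCA, and capitals mark each match.
Oxtr: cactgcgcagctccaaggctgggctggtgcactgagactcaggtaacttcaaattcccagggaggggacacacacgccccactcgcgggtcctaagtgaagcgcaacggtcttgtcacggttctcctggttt
Otoa: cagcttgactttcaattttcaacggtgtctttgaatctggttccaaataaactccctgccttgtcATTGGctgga
Ankrd31: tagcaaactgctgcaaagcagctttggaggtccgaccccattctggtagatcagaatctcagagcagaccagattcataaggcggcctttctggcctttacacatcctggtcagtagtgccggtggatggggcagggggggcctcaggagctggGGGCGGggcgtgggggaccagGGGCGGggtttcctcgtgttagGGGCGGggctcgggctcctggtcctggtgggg
Ankrd31 held GGGCGG 3 times, a motif that 29.7% of 27025 promoters hold in a window of that length. Otoa held CCAAT once on the reverse strand, as do 10.2% of promoters in 75 bases. None of the 5 motifs was found in the Oxtr window, and no motif was shared by the 3 windows. The share of bases that are G or C was 59.1%, 42.7% and 63.3%, in the order shown.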

How the data were processed

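The authors deposited, for each library, a 10x matrix of UMI counts per gene and barcode, made with Cell Ranger on mm10 (3.1.0 in the labels, while the file headers give 3.1.0 for the normal and 4.0.0 for the wounded library), and a table with cluster names, made with Seurat 3.2.2 per the labels. The values of that table are natural log values, which the authors deposited as ln(1 + a whole number). These whole numbers differ from the counts in 48.3% and 41.0% of the non-zero entries, how they were made is not given in the sources used here, and all levels come from the counts. Mc5r and Ankrd31 have no row in the normal table.

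Cells with more than 200 and fewer than 5000 genes and less than 25% mitochondrial UMIs were kept, as the study states. They were clustered in Seurat 5.3.0 (R 4.3.3) with 10 principal components at resolution 0.2, without the 4 genes and their families among the variable genes. A cluster was named only as like a type if that marker list had the highest mean log2 ratio, above 1. Scrublet (scanpy 1.11.5) called 4 of 1548 and 0 of 5225 cells, a share at which it has not worked, so no cell was removed and the 6% highest scores were left out only as an alternative. Levels are CPM of summed UMIs with exact Poisson intervals (scipy 1.17.1), log2 ratios have exact binomial intervals and shares have Clopper-Pearson intervals. PCR duplicates are removed by UMIs, but the intervals cover counting error only. Where a group had 0 UMIs a floor of 3 UMIs over the group was used. Ratio and interval were tested on simulated Poisson counts. These follow the model of the interval, so the test checks the calculation and not the uneven spread of UMIs over cells. The named genes are the 4 members, the nearest annotated gene on either side, the 5 genes with the highest r (at least 100 UMIs), and members of the lists. The named list members are not only those with the highest levels, and some had 0 UMIs. The members, lists and tests were chosen with earlier results of these data known, and the bins by gland genes, the split by sex-linked UMIs, the split of named cells by cluster and the r without Wound_Stress cells were added after seeing the data.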

Additional observations from a re-analysis of the deposited data

Results flagged for a closer look

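Mc5r was also counted in wounded barcodes that failed the cell filters, at 7.81 CPM over 11991 barcodes (258 UMIs), whereas the 1015 failing normal barcodes without a name held 0 UMIs. These barcodes enter no other comparison of the report, and the normal ones serve as the control level. Of the 258 UMIs, 209 were in 8972 barcodes with 25% or more mitochondrial UMIs (8.01 CPM, 6.96 to 9.17) and 38 in 87 barcodes with 5000 or more genes (12.7 CPM, 8.96 to 17.4). The other 11 were in 2932 barcodes with 200 genes or fewer (2.81 CPM, 1.40 to 5.03). Wounded Rectum cells were at 0.73 CPM of Mc5r (0.15 to 2.13), an interval that overlaps the last. Oxtr, Otoa and Ankrd31 were at 3.12, 2.27 and 1.64 CPM in the failing wounded barcodes, with intervals that overlap those of the failing normal ones.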

How the results depend on the processing

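No paired analysis was possible because each group has 1 library. No ratio changed sign under an alternative. In the bins of Wound_Stress cells, however, Otoa in the top bin was at 26.6 CPM in place of 0 UMIs, a 0 from too few cells to be ranked. This was with Scd1 and Mgst1 left out and the cuts set lower. Of 73 values recomputed, 54 stayed within their counting interval or, for counts of genes, within 1.5 times. For the contrast that chose the genes, the mean of single-cell CPM gave log2 ratios of 2.96 for Mc5r, 2.84 for Oxtr and 2.75 for Ankrd31, and cells with over 500 genes and under 10% mitochondrial UMIs gave 2.30 for Mc5r and 2.23 for Oxtr. In the wounded gland-like contrast, Mc5r was at 3.38 by the mean and 3.83 with the stricter filter. Clustering at resolution 0.4 gave 2.36 for Oxtr and 2.18 for Otoa in the normal contrast, and 3.53 for Ankrd31, from a gland-like cluster of 208 cells. The share of Wound_Stress cells with a UMI rose with depth by construction: thinned to 5000 UMIs it was 14.07% for both Mc5r and Oxtr, 7.56% for Otoa and 6.81% for Ankrd31, and without thinning 23.7%, 24.8%, 12.53% and 10.5%. The percent of genes at least 4-fold higher in Wound_Stress cells was 0.0965 with a minimum of 100 UMIs and 0.646 by the mean. The mean gave no value for Mc5r in the normal contrast, where the other cells held 0 UMIs. Apart from the effect of depth on shares, the cause of these shifts was not tested.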
